A study of Rattus norvegicus with 7 samples.

Results

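The V1R gene models of rat chromosome 4 that start above 100 Mb are described here, with their level in each of 7 rats. Vomeronasal receptors of type 1 (V1R) were taken as the models that the authors placed ahead of the genome-ordered part of their annotation, and members as those on chromosome 4 with a start of 100000000 or more. The rule gave 30 models of 224 V1R models and of 29630 models in all, 15 of them intact receptor genes and 15 pseudogenes, copies without an intact coding sequence. Of the 15 intact members 14 have an Ensembl identifier and no receptor name in the files, and their class rests on their place in the annotation. The rule used position alone and no measured value.

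V1R proteins are G protein-coupled receptors that span the membrane of vomeronasal sensory neurons and bind chemical signals from other animals, steroid derivatives among them. Their coding sequence typically lies in a single exon, and a sensory neuron is thought to use mainly one V1R gene, chosen from a large family arranged in clusters. In such neurons the receptor couples to an inhibitory G protein, and the signal opens the TRPC2 cation channel. In RNA of a whole tissue the level of a V1R gene thus combines the number of neurons that chose it and the RNA in each of them, and these cannot be told apart.

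RNA came from the vomeronasal epithelium of 7 male LEW/Crl (Lewis) rats, an inbred strain, aged 8 weeks, each rat giving 1 library. All were flushed of blood with heparin, none was given a treatment that the labels name, and all form 1 group, so that the values are levels and their spread over rats, with no contrast between conditions. The libraries held 64085829 to 74924005 counts. A check of the tissue against marker genes was not made, because no table pairing identifiers of this annotation with symbols was at hand. The gene table used matched 0 of the 30 members, so that no promoter or protein sequence was matched to a member.

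The intact members form 1 cluster of 1008 kb, from 123811714 to 124819364 on chromosome 4 (RGSC3.4). Each has 1 exon of 885 to 1020 bases, and all 15 lengths are multiples of 3, as of coding sequence that leaves the UTRs out. 10 lie on the plus strand and 5 on the minus strand. 12 of them stand within 431 kb at the lower end (123811714 to 124242447), and the gaps between neighbouring intact members range from 10.5 to 303 kb with a median of 35.7 kb. The pseudogenes are 160 to 976 bases long, only 3 of their 15 lengths are multiples of 3, and 3 of them are split into several exons. 11 pseudogenes lie 5.87 to 82.3 kb from an intact gene, and the other 4 lie more than 500 kb away. No member overlaps another model.

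Nearly all intact members and hardly any pseudogenes were detected. With detection set at 10 counts or more in at least 4 of the 7 rats, which 56.3% of all 29630 models passed, 14 of the 15 intact members and 1 of the 15 pseudogenes were detected. Outside this region 88 of 94 intact V1R genes (93.6%) and 15 of 100 V1R pseudogenes (15.0%) passed the same rule. The 15 intact members together took 0.00753% ± 0.00127 of all counts (SD, n = 7). The lowest share was 0.00581% in rat 6 (95% Wilson score interval 0.00563% to 0.00600%), the median 0.00779% and the highest 0.00933% in rat 7 (0.00909% to 0.00956%). Rats 1 and 6 were low and rat 7 high. These intervals cover counting error only, and the reads carried no molecular identifiers.

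A few receptors held most of the signal. ENSRNOG00000017754 (124161190–124162170, plus strand) was the highest member, with 13.4 CPM (counts per 1000000 counts of the library) in the lowest rat, a median of 18.1 and 22.4 in the highest, a mean of 18.2 ± 3.51 CPM (SD, n = 7). It ranked 3 among all 109 intact V1R genes by CPM and gave 24.1% ± 1.05 of the counts of the intact members. The adjacent intact gene at lower coordinates, 104 kb away, was 6.36-fold below ENSRNOG00000017754 in mean RPKM. The nearest intact neighbours of ENSRNOG00000017754, both at higher coordinates, were high as well. ENSRNOG00000029263 (124189945–124190877, minus strand) ran from 7.28 to 12.0 CPM with a median of 9.50, and ENSRNOG00000032036 (124241437–124242447, plus strand) from 8.10 to 15.4 CPM with a median of 11.4. By CPM of total counts, the highest value was in rat 7 for each of these 3 genes. Together they made up 51.6% ± 1.24 of the intact member counts (SD, n = 7).

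ENSRNOG00000017726 (123811714–123812646, minus strand), the first intact gene of the cluster, was of similar level, with 8.15 CPM in rat 1, a median of 11.1 and 12.6 in rat 2. Unlike those 3 genes it had whole counts in every rat, whereas fractions of a count mark reads shared with another place. ENSRNOG00000017735 (123915185–123916117) followed with 5.27 to 8.16 CPM and a median of 7.20. These 5 highest genes held 75.2% ± 1.06 of the intact member counts (SD, n = 7). The neighbour of the last, ENSRNOG00000030117 (123897731–123898657, on the same strand and 16.5 kb away), had 5.26 ± 1.17 CPM (SD, n = 7), with 3.73 in rat 6 and 7.39 in rat 7.

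Between these and the lowest receptors stood 4 genes of middle level. ENSRNOG00000031028 (124818345–124819364, minus strand), the last intact gene of the cluster and 303 kb from the next, had 3.68 ± 0.543 CPM. ENSRNOG00000029442 (124475258–124476268) had 2.78 ± 0.441 CPM and ENSRNOG00000026073 (124056286–124057230) 2.76 ± 0.479. ENSRNOG00000030026 (124042296–124043228), with whole counts in every rat, had 1.95 ± 0.322 CPM (SD, n = 7 each).

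The 5 lowest receptors made up only 3.01% ± 0.231 of the intact member counts (SD, n = 7). ENSRNOG00000030746 (123949014–123949994) had 0.701 ± 0.137 CPM and ENSRNOG00000032691 (124012686–124013645) 0.692 ± 0.127 (SD, n = 7 each). NG_Vom1r44l (123841439–123842323), the 1 intact member that the authors named, had 0.408 CPM in the lowest rat, a median of 0.483 and 0.601 in the highest, from 27 to 45 whole counts. ENSRNOG00000017743 (123960465–123961409) had 0.214 ± 0.0897 CPM (SD, n = 7), with 0.371 in rat 4 and 0.135 in rat 5. It reached 10 counts in 5 of 7 rats and so was only just detected.

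The intact gene below the detection rule was ENSRNOG00000031140 (124514727–124515692, plus strand). It nevertheless had whole counts above 0 in every rat, from 6 to 21 with a median of 8, which is 0.0852 to 0.281 CPM. Rats 2 and 3, with 18 and 21 counts, lay above the other 5, which had 6 to 9. It reached the 10 counts of the rule in 2 rats only. All 7 values lay above the 0.0400 to 0.0468 CPM of 3 counts, about the 95% upper limit for a count of 0 in a single rat.

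**Figure D1:**
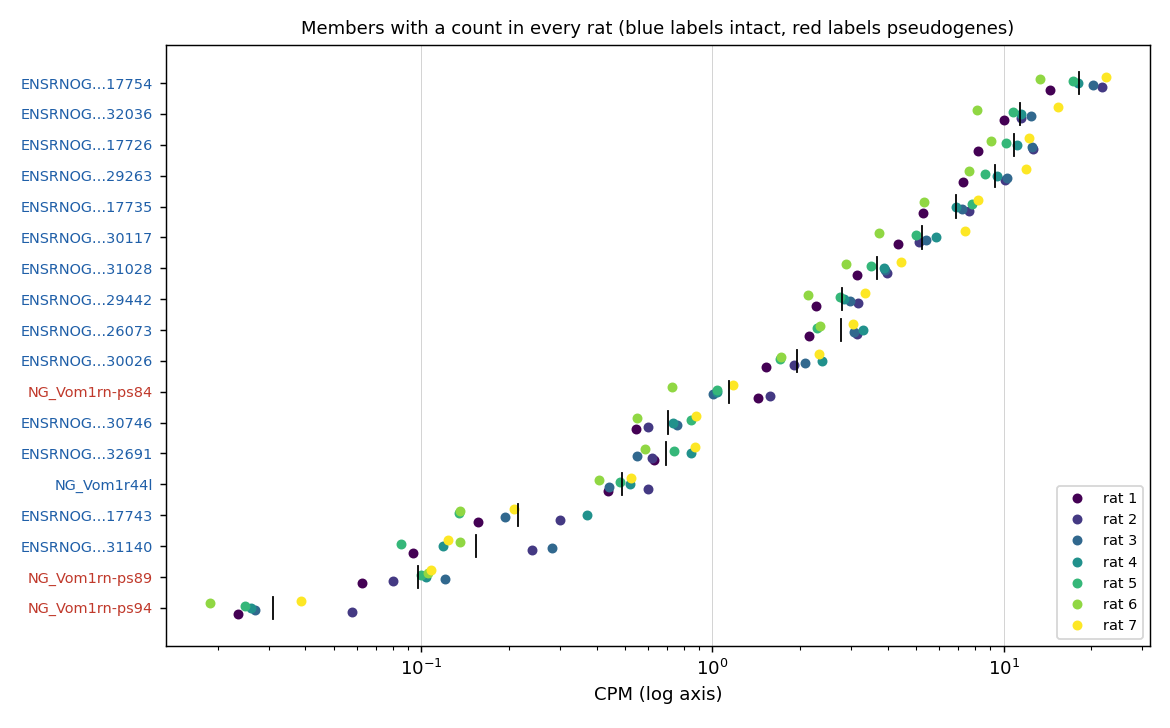
CPM (log axis) of the members that had a count in every rat, ordered by mean. Each dot is 1 rat, coloured by rat, the short black lines are means of 7 rats, and labels are blue for intact genes and red for pseudogenes. ENSRNOG00000017754 lies between 13.4 and 22.4 CPM, NG_Vom1rn-ps84 between 0.724 and 1.57, above the mean of 5 intact genes.

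Levels were compared between genes per length, as RPKM. The highest gene exceeded the lowest by 117 times in mean RPKM (18.6 ± 3.57 for ENSRNOG00000017754 and 0.159 ± 0.0785 for ENSRNOG00000031140, SD, n = 7). Ordered by mean RPKM, 10 genes lay at 2.09 (ENSRNOG00000030026) or more and 5 at 0.721 (ENSRNOG00000032691) or less, with none between. Elsewhere 24 of the 94 other intact V1R genes were below 1 RPKM and 7 lay between 1 and 2 RPKM; these limits were chosen after seeing the values. The mean log2 ratio across that step was 1.41 ± 0.21 (SD, n = 7), in the same direction in 7 of 7 rats. The step and the order were taken from these same values, so directions over rats describe them and do not test them. Here and below, log2 ratios are of RPKM + 0.1.

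Of the 14 pairs of neighbours in this order, 8 kept their order in every rat. The highest gene stood above the next, ENSRNOG00000017726, in 7 of 7 rats (log2 ratio 0.67 ± 0.10, SD, n = 7). The other 6 pairs were in the opposite order in at least 1 rat. For ENSRNOG00000017726 and ENSRNOG00000032036 the ratio was smaller than its spread (0.05 ± 0.19, higher in 5 of 7), and for ENSRNOG00000032036 and ENSRNOG00000029263 slightly larger (0.16 ± 0.12, 6 of 7). Lower down, it was smaller than its spread for ENSRNOG00000026073 and ENSRNOG00000029442 (0.08 ± 0.16, 5 of 7) and for ENSRNOG00000032691 and ENSRNOG00000030746 (0.01 ± 0.21, 5 of 7). It was slightly larger for ENSRNOG00000030746 and NG_Vom1r44l (0.31 ± 0.25, 6 of 7), and smaller again for the lowest pair, ENSRNOG00000017743 and ENSRNOG00000031140 (0.34 ± 0.46, 6 of 7). Across the 15 genes the order was much the same in all animals, with Spearman's rho of 0.982 to 0.996 over the 21 pairs of rats, as a description across genes that share a library.

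Adjacent genes often differed widely in level. Of the 14 pairs of adjacent intact genes, 9 differed by more than 3-fold in mean RPKM, with a median of 3.64-fold. The direction was kept in all 7 rats by 13 of the 14. The 15 genes spread widely as a whole, with an SD over genes of 1.98 on the log2 scale. Folds were not summarised for pairs that are not adjacent. Whether neighbours differ more or less than other pairs was thus not tested. ENSRNOG00000017726 was 21.1-fold above NG_Vom1r44l, 28.8 kb away on the other strand (log2 ratio 4.16 ± 0.18, SD, n = 7). ENSRNOG00000029442 was 17.2-fold above ENSRNOG00000031140, 38.5 kb away on the same strand (3.49 ± 0.37). By contrast ENSRNOG00000029263 and ENSRNOG00000032036, 50.6 kb apart and on opposite strands, were within 1.12-fold. Across the 15 genes, Spearman's rho of mean RPKM was 0.036 with length and 0.20 with the distance to the nearest intact gene, given as descriptions.

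Among the pseudogenes, 10 of 15 were at 0 counts in all 7 rats, and 8 of these 10 had 600 bases or more. About the 95% upper limit for a count of 0 is 3 counts, here 0.00622 CPM over the group. Another 4 had traces. NG_Vom1rn-ps89 (124307206–124307978, minus strand) had 4 to 9 whole counts in every rat, 0.0971 ± 0.0195 CPM. NG_Vom1rn-ps91 (124324738–124325342) had 0 to 2 counts in a rat and ENSRNOG00000019158 (124810528–124811465), the member without a name among the pseudogenes, 0 to 2 as well. NG_Vom1rn-ps94 (146000779–146000968) had 0.0309 ± 0.0133 CPM (SD, n = 7), with fractions of reads that also mapped elsewhere in 6 of 7 rats. Being 190 bases long and 21181 kb from the nearest intact gene, it was the most distant member with a count. A run of 5 pseudogenes, NG_Vom1rn-ps87 to NG_Vom1rn-ps91, stands in the gap of 233 kb that follows the high gene ENSRNOG00000032036, and 3 of the 5 had no count.

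NG_Vom1rn-ps84 (124076649–124078490, plus strand, 2 exons with 976 bases) was the 1 pseudogene detected. It lies 19.4 kb from the intact gene ENSRNOG00000026073 and had whole counts in every rat, from 48 to 118. Its level was 0.724 CPM in rat 6, a median of 1.04 and 1.57 in rat 2, a mean of 1.14 ± 0.286 CPM (SD, n = 7). Per length it stood above each of the 5 lowest intact genes in 7 of 7 rats, by a log2 ratio of 0.61 ± 0.39 over ENSRNOG00000032691 and 2.31 ± 0.50 over ENSRNOG00000031140 (SD, n = 7). It stood below the other 10 in every rat, the nearest being ENSRNOG00000030026 (-0.80 ± 0.42).

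The rats ranked differently for this pseudogene than for the receptors around it. It had 1.44 CPM in rat 1 and 1.57 in rat 2, and 0.724 to 1.17 in the other 5, whereas the summed intact members were low in rat 1 (60.4 CPM, against 58.1 in rat 6 and 72.1 to 93.3 in the others). With TMM factors it still had 1.52 and 1.57 CPM in rats 1 and 2, and 0.748 to 1.07 in the others. Of the counts of NG_Vom1rn-ps84 and the intact members together, it took 2.32% in rat 1 (95% Wilson score interval 1.90% to 2.84%) and 1.86% in rat 2 (1.55% to 2.22%). In the other 5 rats the share lay between 1.20% (0.961% to 1.51%) and 1.42% (1.13% to 1.78%). All pseudogene members took 1.70% ± 0.404 of the member counts, against 5.24% ± 0.208 for the pseudogenes among all other V1R models (SD, n = 7). Without NG_Vom1rn-ps84 the pseudogene members had 6.50 to 14.0 counts in a rat.

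**Figure D2:**
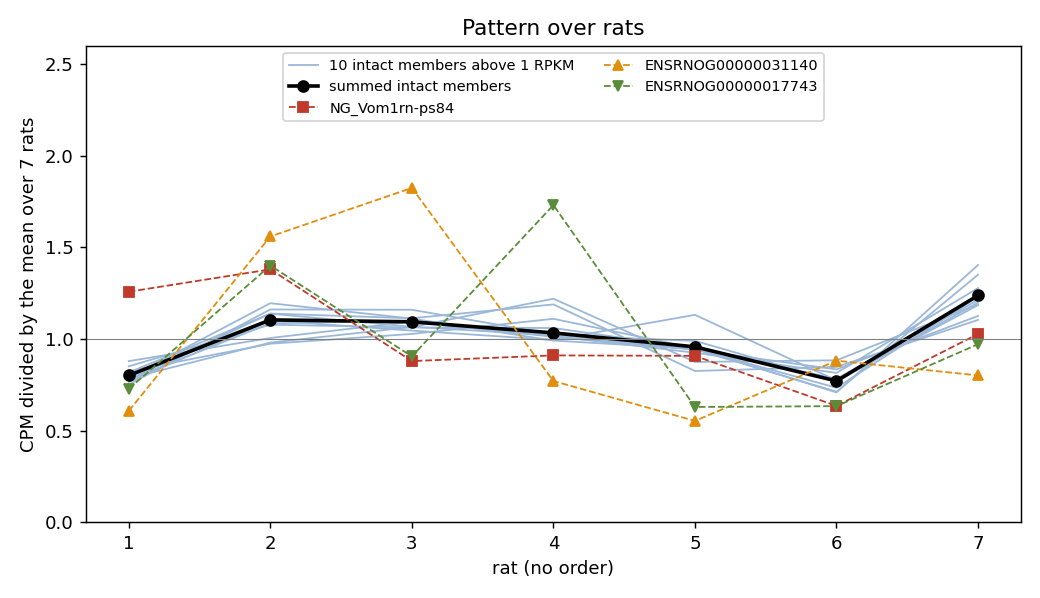
CPM in each rat divided by the model's mean over 7 rats. Thin blue lines are the 10 intact members above 1 RPKM, the black line their sum with the other 5 intact members, and dashed lines NG_Vom1rn-ps84 and the lowest intact genes ENSRNOG00000031140 and ENSRNOG00000017743. The summed intact members are lowest in rats 1 and 6 and highest in rat 7, NG_Vom1rn-ps84 is highest in rats 1 and 2, and lines only join the values of 1 model.

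The intact members shared much of their spread between rats. By CPM of total counts, the lowest pair of rats was 1 and 6 in 10 of the 15, and the highest was rat 7 in 9 of the 15. The coefficient of variation (CV) of CPM over the 7 rats had a median of 17.4% in the 14 detected intact genes. When each gene's counts were divided by the counts of all other intact V1R genes of that rat, the median CV was 9.66%, and it was lower in 14 of 14. The smallest CVs of this ratio were those of ENSRNOG00000031028 (3.56%) and ENSRNOG00000029442 (4.68%), from 14.8% and 15.9% for CPM. All intact V1R genes together showed the same dip, at 0.0383% of all counts in rat 6 and 0.0639% in rat 7. With TMM factors, which allow for a few very abundant models, the range of the summed intact members narrowed from 1.61-fold to 1.41-fold. The sum was still lowest in rat 6 and highest in rat 7. Its lead over rat 2 narrowed, from 93.3 against 83.2 CPM to 84.7 against 82.9. Which rat is highest for a single gene thus depends on the scaling, and ranks by gene are given for total counts only. The labels give no batch.

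For the abundant genes this spread was far above counting error. Counting alone would give a CV of 2.82% for ENSRNOG00000017754, where 19.2% was measured. For NG_Vom1r44l it would give 17.3%, where 13.6% was measured, so that any difference between rats was not detectable at this depth. ENSRNOG00000031140 and ENSRNOG00000017743 varied by 49.2% and 41.9%, against 30.4% and 26.0% from counting. Divided by the other intact V1R counts they still had 42.2% and 36.1%, the largest values among the intact members. For NG_Vom1rn-ps84 the CV was 25.0% against 11.3% from counting, and 25.9% after the division.

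**Figure D3:**
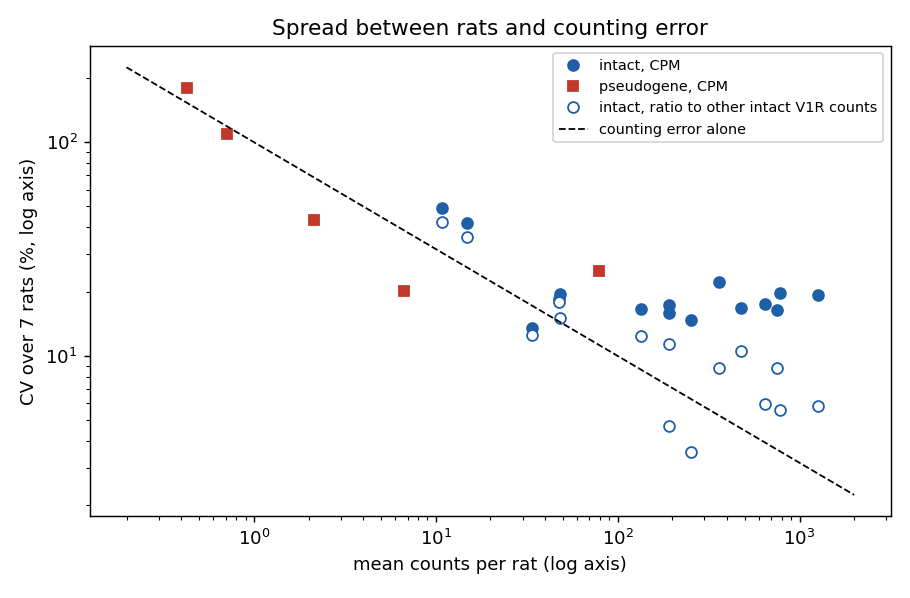
Coefficient of variation over 7 rats (%, log axis) against mean counts per rat (log axis) for members with a count. Filled circles are intact genes and squares pseudogenes, both for CPM, open circles are intact genes divided by the counts of the other intact V1R genes, and the dashed line is the CV that counting error alone gives. ENSRNOG00000017754 falls from 19.2% to 5.81% with the division, and NG_Vom1rn-ps84 stands above the line at 25.0%.

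Shared reads bear on most of these levels. The counts of 4 intact members (ENSRNOG00000017726, NG_Vom1r44l, ENSRNOG00000030026 and ENSRNOG00000031140) were whole in every rat, and these genes held 17.9% ± 1.11 of the intact member counts (SD, n = 7). The other 11 included fractions of reads that mapped to several places, in 2 of 7 rats for ENSRNOG00000030117, ENSRNOG00000017735 and ENSRNOG00000032036 and in 5 of 7 for ENSRNOG00000017754. How many of their reads were shared cannot be read from the counts. Over the 4 genes with whole counts alone the levels still ran from 0.159 to 11.6 RPKM.

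The median level of the region lay within the range of the other V1R regions. The median of log2(mean RPKM + 0.1) was 1.59 in its 15 intact genes, 1.70 in the 94 others and -0.36 over all 29630 models. By region the medians were 1.76 on chromosome 1 at 49–60 Mb, 1.56 at 62–69 Mb, 1.75 at 71–74 Mb and 1.81 on chromosome 4 below 100 Mb. The members are 13.8% of the intact V1R genes and gave 14.5% ± 0.506 of their counts (SD, n = 7). This share was 13.7% in rat 1 (95% Wilson score interval 13.3% to 14.1%) and 15.2% in rat 6 (14.7% to 15.6%), both rats in which the sum of all intact V1R genes was low. Its CV over rats was 3.48%, against 1.30% from counting alone, and fell to 2.43% without rat 1. In those other 4 regions the CV was 1.08% to 2.33%, a difference that was not tested.

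The variability between rats of the detected intact members, as the biological coefficient of variation from a single edgeR fit over all 16670 detected models, had a median of 14.9%, from 13.1% for ENSRNOG00000029263 to 29.1% for ENSRNOG00000017743. The 88 other detected intact V1R genes had a median of 16.9% and all detected models 10.5%. These medians are descriptions, and models of different abundance enter them. The fit draws each value toward that of models of similar abundance, so values of genes with few counts rest partly on other models. NG_Vom1r44l was given 14.9%, although its CV of CPM (13.6%) was below that of counting alone (17.3%).

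At the edge of the rule, the 3 V1R models nearest to 100 Mb were NG_Vom1rn-ps81 inside it and 2 intact genes outside it. NG_Vom1rn-ps81 (109709612–109710335), 13293 kb from the nearest intact gene, was at 0 counts in every rat. ENSRNOG00000030085 (96415882–96416799) had 13.2 ± 2.08 CPM and ENSRNOG00000031987 (87099401–87100294) 7.82 ± 1.43 CPM (SD, n = 7 each). The highest gene of the cluster described here, at 18.2 CPM, compares with 37.8 ± 6.60 for ENSRNOG00000033061, 21.3 ± 4.23 for ENSRNOG00000029625 and 17.9 ± 3.18 for ENSRNOG00000032818, the highest of the 3 regions of chromosome 1, and 5.11 ± 1.10 for ENSRNOG00000043367, the highest on another chromosome (SD, n = 7).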

How the data were processed

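The files hold, per the file headers, estimated counts per gene model made by the authors with featureCounts 1.6.3 (1.6.5 after alignment with STAR 2.7.1a per the submitters' processing notes). A read was counted on exons of the matching strand, with 1 base of overlap or more and mapping quality from 0 up. Reads with several alignments entered each as a fraction, so that near-identical copies can share reads. The annotation was Ensembl 67 on RGSC3.4, extended by the authors. Libraries came from polyA-selected RNA, stranded, with single-end reads of 100 nucleotides, per the labels' protocols.

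From these counts CPM (per total counts of a library) and RPKM (per exon length) were computed here. Counts within 0.005 of a whole number in every rat were called whole. The rat is the replicate. Each pair of libraries gave a chi-square of 9.45 to 86.2 per degree of freedom, and all 7 were kept apart. Biological coefficients of variation came from edgeR 4.0.16 (R 4.3.3), intercept only, TMM factors, counts rounded to whole numbers, all detected models, and the fit was tested on simulated data. DESeq2 1.42.0 gave alternative size factors. Python 3.11.15, numpy 2.4.6, scipy 1.17.1, pandas 2.3.3 and matplotlib 3.10.9 did the rest. Shares of a single rat have 95% Wilson score intervals on rounded counts.

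With 1 group and members proposed with results known, no p-value is given. The members, lists and detection rule were chosen with earlier results of these data known. All members were named by rule, and outside them the V1R models nearest to 100 Mb, the highest of each other V1R region and abundant models between the members. The gene table used (47357 genes, GRCr8) matched 0 member identifiers, so that no sequence is printed. Lists of cell type markers and pathway genes need symbols and were not run, as no table paired identifiers of this annotation with symbols. Single-cell reads were not analysed here.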

Additional observations from a re-analysis of the deposited data

How the results depend on the processing

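No paired analysis was possible because all rats form 1 group. Of 100 alternative values of the summary results, 87 stayed within a set spread (for counts, within 1.5 times) and 13 moved. This spread was the SD between rats for the shares and the median level. For the biological coefficient of variation and the CV ratio it was a standard error made from the values with 1 rat left out. Those values therefore do not test these 2 results. The label of a reversal was given to 0 values, but it was possible only for the median log2 level. Leaving out 1 rat cannot move a mean over rats beyond the SD between rats. The shares with a rat left out thus stayed within it by construction and do not test stability. With each rat left out, the share of all counts was 0.00723% to 0.00782%, the share of intact V1R counts 14.4% to 14.7%, the pseudogene share 1.57% to 1.74%, the median log2 level 1.55 to 1.64, the pairs of neighbours in order 8 to 9, the median biological coefficient of variation 13.3% to 15.9%, and the median CV after division by the other V1R counts 0.506 to 0.642 times that of CPM (0.554 with all rats). Detection stayed at 14 intact genes and 1 pseudogene. Over models with whole counts only, which leaves 4 intact members, the share of all counts was 0.00134%, that of intact V1R counts 9.92%, the pseudogene share 8.65%, 3 intact genes were detected, the median level was 0.25, 3 pairs kept their order, and the CV ratio was 0.684. This setting drops models and changes no count of those kept, and the kept intact members held 17.9% of the intact member counts. The share of all counts, the detected genes and the pairs thus fell by construction, and the pseudogene share rose with the intact counts removed. For the share of intact V1R counts, the median level and the CV ratio, fewer genes were kept, and all of them without fractions. Which of these 2 moved those 3 values cannot be told apart. Without the 10 most abundant models in the total, a step that raises the median detected model by 0.88 on the log2 scale, the share of all counts was 0.0138%, the median level 2.45 and the CPM of all 15 intact members higher, by construction. TMM and DESeq2 factors moved 0 of the 15 CPM means beyond the spread between rats, but such factors are centred and leave means nearly unchanged by construction. The CV ratio was 0.658 with TMM and 0.655 with DESeq2 factors. A minimum of 3 counts detected 2 pseudogenes, with NG_Vom1rn-ps89. A pseudocount of 1 gave a median level of 1.97, by its own construction. With all models that had a count in the fit, the median biological coefficient of variation was 17.6%, taken over all 15 intact members. The median CV of CPM was 17.4% in the 14 detected intact genes. Unlike the fit, that CV includes counting error and uses total counts without TMM factors. The part of each difference was not tested. Depth limits the 5 lowest receptors most.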

Other observations

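Other gene models share the stretch with these receptors. Of 7 models between the first and last intact member, 5 were detected. 6 of the 7 lie together between ENSRNOG00000031140 and ENSRNOG00000031028, where 0 intact V1R genes stand, and reached 34.0 ± 2.37 CPM for ENSRNOG00000017808 (124714395–124726962) and 13.2 ± 0.936 for ENSRNOG00000025818 (124629608–124660294), whereas ENSRNOG00000025934 (124564593–124569087) had no count (SD, n = 7). The remaining one, ENSRNOG00000017719 (123814513–123816714), with 2.09 ± 0.191 CPM, stands between ENSRNOG00000017726 and NG_Vom1r44l. Between the first and last member of either class, 10 of 296 other models reached 100 CPM, and the highest was ENSRNOG00000013743 (122597893–122612245) at 372 ± 15.5 CPM, followed by ENSRNOG00000005652 (141522606–142055176) at 344 ± 53.5 and ENSRNOG00000010048 (117390585–117410119) at 259 ± 36.5 CPM (SD, n = 7).

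Dixon's test for a single rat apart from the rest was run on 25 values (the CPM of each member with a count and 5 shares), and 0 passed the 95% critical value, where chance flags about 1 in 20. The test can miss a pair of rats that stand out together, such as rats 1 and 2, the highest for NG_Vom1rn-ps84.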
